A study of Mus musculus with 17 samples.

Results

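Csf1, Il34, Csf1r, Csf2ra, Csf2rb and Csf3r are genes of the colony stimulating factors and their receptors. They were picked by gene symbol, and all 6 were found among the 22462 genes of the deposited tables. The data are polyadenylated RNA of mouse cerebral cortex (strain FVN/Swiss in the labels), sequenced from 17 libraries. There are 2 libraries each of purified microglia, neurons, astrocytes and endothelial cells and of purified oligodendrocyte precursor cells, newly formed oligodendrocytes and myelinating oligodendrocytes, and 3 of whole cortex. No treatment, transgene or mutation is named for any group, and ages, sort markers and animal numbers are not given in the labels. Since no label says that a group's libraries stem from different animals, the p-values cover only the variation among these libraries, which could be technical.

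CSF1 and IL-34 are unrelated in sequence but bind the same receptor tyrosine kinase, CSF1R, which microglia and other macrophages need to survive and divide. CSF1 is made as a long precursor that is secreted and as a shorter form that is cut slowly and stays on the cell surface. The receptor for GM-CSF pairs a ligand-specific alpha chain, Csf2ra, with the beta chain Csf2rb, which the IL-3 and IL-5 receptors also use, and Csf3r is the receptor for G-CSF, best known on neutrophils.

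The unit throughout is the deposited FPKM, which scales reads by transcript length and by library size, so levels of different genes can be set side by side. A gene listed at 0.1 FPKM is at the floor of the tables. A library's FPKM summed to between 205621 and 389838, with 30.8% to 45.1% of its genes at that floor. Read numbers are unknown, and counting intervals are therefore left out. The 2 precursor libraries held 349 and 163 FPKM summed over 6 microglia markers, against 1.11 to 48.5 FPKM in the other purified non-microglia libraries and 5054 to 7258 FPKM in microglia. Precursor library 1 also held 2082 FPKM summed over 2 erythroid genes, both precursor libraries held 60.7 to 103.7 FPKM over 4 fibroblast genes, and the results are given with and without these libraries where they matter. Marker lists of the other types were highest in the type they are named for, except that 5 genes of myelinating oligodendrocytes reached 17970 FPKM in newly formed ones, against 17190 to 17560 FPKM in myelinating ones.

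Of the 6 genes, 4 were called higher in microglia than in any other purified type, namely Csf1, Csf1r, Csf2rb and Csf3r. A gene was called when it passed a limma test on log2(FPKM + 1), with p adjusted over 14011 genes, and lay at least 1 log2 unit above the nearest type. Csf2rb reached 1 FPKM in the microglia libraries alone, so it entered the test only through the group where it is high and its call is no support. Among all genes tested 7.03% were called for microglia and 25.3% for any purified type. Il34 was highest in neurons and Csf2ra in microglia and neurons together, and neither was called. Without both precursor libraries, an alternative chosen after seeing the data, 5 of the 6 were called, the added one being Il34 in neurons (log2 difference 1.16 over endothelial cells, adjusted p = 0.00601). Scaling the libraries by the median of ratios or to a common sum moved the median log2 difference of all genes by up to 0.84 and 0.62. The 4 microglia calls held under both scalings, with log2 differences of 3.03 to 5.74 and of 2.42 to 4.27. In these bulk libraries fewer cells of a type and less RNA per cell cannot be told apart.

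Csf1, the growth factor of macrophages, had 254 and 139.6 FPKM in the microglia libraries. Its level was 21.8 and 17.6 FPKM in astrocytes, 15.3 and 15.4 in endothelial cells and 5.64 and 10.2 in neurons. Along the oligodendrocyte series Csf1 had 16.2 and 9.95 FPKM in precursor cells, 12.8 and 14.98 in newly formed and 13.2 and 27.5 in myelinating oligodendrocytes. Whole cortex had 26.1, 22.1 and 15.8 FPKM of Csf1. Both microglia libraries lay far above every other library, no library was at the floor, and the 6 other types ran from 5.64 to 27.5 FPKM.

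The mean of Csf1 was 196.9 ± 80.9 FPKM in microglia (SD, n = 2), 9.69 times the 20.3 ± 10.1 FPKM of myelinating oligodendrocytes (SD, n = 2), the next type by mean. On the log2(FPKM + 1) scale the nearest type was astrocytes, at a difference of 3.20 (SE 0.37, limma adjusted p = 6.24e-06). Csf1 ranked 237 of 22462 genes by mean level in microglia. Over all genes 39.3% of tests between purified types were called and 34.4% of those against whole cortex. Of the 28 pairs of groups 10 were called for Csf1 (8 of 21 and 2 of 7), 7 of them microglia against another group. The other 3 set neurons, with 7.94 ± 3.26 FPKM, below astrocytes, myelinating oligodendrocytes and whole cortex. The neuron level was lower by 1.25 on the log2 scale against astrocytes (adjusted p = 0.00941), a pair in which 34.2% of all genes were called. It was lower by 1.22 against myelinating oligodendrocytes (adjusted p = 0.00911; 45.3% of all genes called) and by 1.34 against whole cortex (adjusted p = 0.00512; 17.7% called). All 3 calls rest on neuron library 1, without which the differences were 0.87, 0.84 and 0.96. The call against astrocytes was also lost without astrocyte library 1, at 1.10, and that against myelinating oligodendrocytes without their library 2 or with scaling to a common sum, at 0.71 in both. No pair of astrocytes, endothelial cells and the 3 oligodendrocyte stages was called, and all 10 had adjusted p of 0.194 or more. With median-of-ratios scaling myelinating oligodendrocytes were called above precursor cells (1.57), newly formed oligodendrocytes (1.14) and endothelial cells (1.05), and without their library 1 above precursor cells (1.05).

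Il34, the other ligand of CSF1R, had 8.23 and 10.2 FPKM in neurons. It had 2.63 and 4.71 FPKM in endothelial cells, 0.889 and 1.60 in microglia and 0.303 and 0.298 in astrocytes. In the oligodendrocyte series Il34 had 3.82 and 6.89 FPKM in precursor cells, 0.226 and 0.332 in newly formed and 0.384 and 1.69 in myelinating oligodendrocytes. Whole cortex had 6.03, 7.27 and 6.78 FPKM of Il34. Both neuron libraries lay above every other library, with precursor library 2 and the cortex close beneath.

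The mean of Il34 was 9.21 ± 1.39 FPKM in neurons, against 5.36 ± 2.17 in precursor cells and 6.69 ± 0.62 in whole cortex (SD, n = 2, 2 and 3). Neurons were not called above precursor cells (log2 difference 0.72, SE 0.31, adjusted p = 0.163 in the test against each type), nor from whole cortex (0.40, SE 0.28, adjusted p = 0.269). Without precursor library 2 the difference from precursor cells was 1.08 and was called. Neurons exceeded endothelial cells by 1.16 (adjusted p = 0.00386; 45.4% of all genes called), a call that was lost without endothelial library 1, at 0.83. They exceeded microglia by 2.20, myelinating oligodendrocytes by 2.40, astrocytes by 2.97 and newly formed oligodendrocytes by 2.99 (adjusted p = 1.42e-05 or less). In those pairs 52.5% of all genes were called against microglia and 30.5% against newly formed oligodendrocytes. Il34 was called in 17 of 28 pairs. Between purified types 13 of 21 were called (39.3% over all genes), and against whole cortex 4 of 7 (34.4% over all genes). Precursor cells were above astrocytes by 2.25, newly formed oligodendrocytes by 2.27, myelinating oligodendrocytes by 1.68 and microglia by 1.48 (adjusted p = 0.000565 or less). Between precursor cells and myelinating oligodendrocytes 48.3% of all genes were called. Endothelial cells were themselves above astrocytes by 1.81 (adjusted p = 0.000124; 40.1% of all genes called) and above newly formed oligodendrocytes by 1.83 (adjusted p = 0.000114; 38% called). They were also called above myelinating oligodendrocytes, by 1.24, and microglia, by 1.04 (43.2% of all genes called against microglia). Both of these calls were lost with median-of-ratios scaling, at 0.84 and 0.70, as was that of precursor cells over microglia, at 0.89.

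Neuron markers were set beside Il34. As a share of the neuron mean, 5 neuron markers had a median of 6.09% and 7.57% in the precursor libraries (highest marker 25.0% and 20.9%), where Il34 stood at 41.5% and 74.8%. In endothelial cells these markers stood at 1.33% and 1.39%, with a highest marker of 5.23%, and Il34 at 28.6% and 51.2%. In myelinating oligodendrocyte library 2 they stood at 7.34%, with a highest marker of 21.1%, and Il34 at 18.4%, within their range. In whole cortex the markers had medians of 77.6% to 89.5% of the neuron mean and Il34 65.5% to 78.9%. The part of neuronal RNA in these Il34 levels was not tested.

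**Figure D1:**
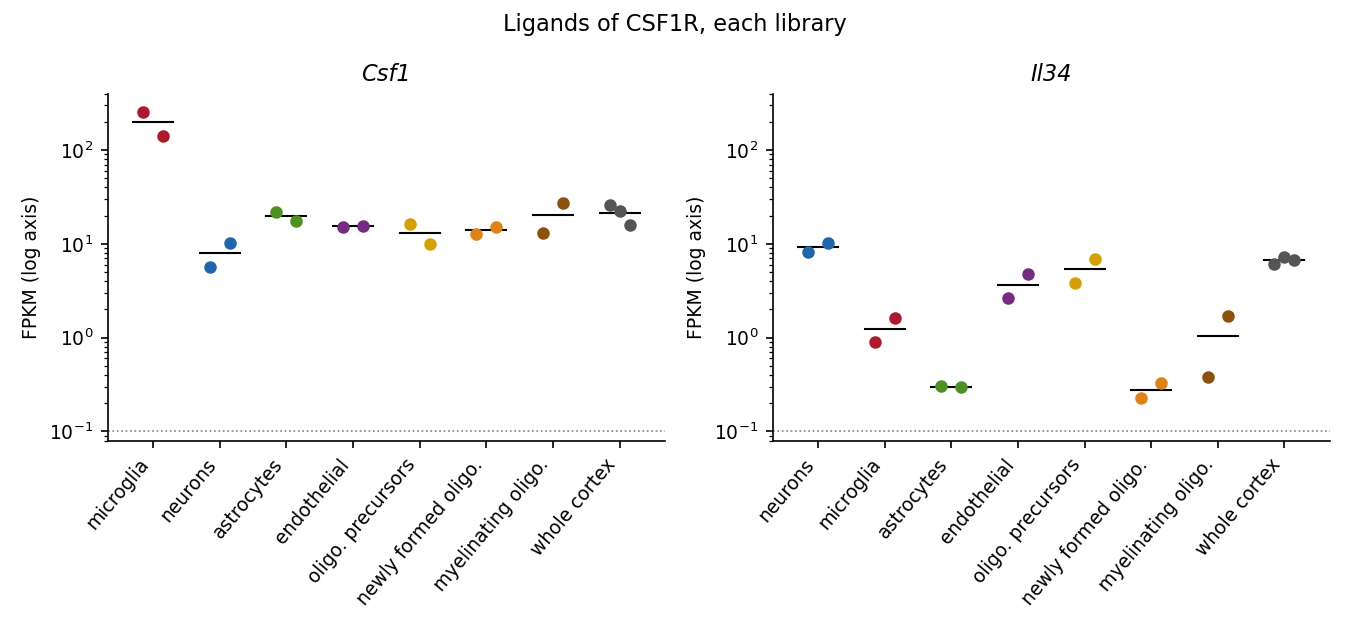
FPKM of Csf1 (left) and Il34 (right) in each library on a log axis, with points for libraries, bars for group means and a dotted line at the floor of 0.1 FPKM. Csf1 stands apart in microglia, at 139.6 and 254 FPKM, and Il34 is highest in neurons, at 8.23 and 10.2 FPKM.

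The plot of both ligands shows Csf1 highest in microglia and Il34 highest in neurons. The ratio of Il34 to Csf1 FPKM was 1.46 and 0.995 in neurons, 0.236 and 0.692 in precursor cells and 0.172 and 0.307 in endothelial cells. It was at most 0.0615 in the other purified libraries, lowest in microglia at 0.0035 and 0.0115. In whole cortex it ran from 0.232 to 0.429. Neurons were the only purified type with a library in which Il34 exceeded Csf1, and this holds for 1 of the 2 neuron libraries.

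The isoform tables split Csf1 by transcript. NM_007778 codes for 552 residues, and NM_001113529 for 257, because it lacks 885 bases of an exon, or 295 codons. That stretch holds the sites at which the secreted form is cut, and the short transcript is the cell-surface form of the background. NM_001113530 codes for 552 residues and ends at another exon. The missing stretch is chr3:107748285-107749169 on the minus strand of GRCm38, which is not the mm9 build of the files. The junctions show where the transcripts part, from GENCODE vM21 transcripts, 5′ to 3′, with the shared exon in lower case and what follows in capitals.
Csf1 NM_007778: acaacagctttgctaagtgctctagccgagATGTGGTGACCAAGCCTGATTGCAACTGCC
Csf1 NM_001113529: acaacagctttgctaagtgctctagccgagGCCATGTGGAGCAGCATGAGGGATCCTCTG

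The short transcript NM_001113529 took 27.9% and 28.2% of the summed Csf1 FPKM in endothelial cells. Its share was 10.8% and 5.63% in microglia, 5.34% and 6.18% in astrocytes and 2.32% and 0% in neurons, where a transcript at the floor counts as 0. Along the oligodendrocyte series the share was 8.37% and 2.86% in precursor cells, 19.8% and 19.8% in newly formed and 23.4% and 21.4% in myelinating oligodendrocytes. Whole cortex had 3.58%, 4.10% and 6.64%. Endothelial cells and the 2 later oligodendrocyte stages lay above every other library, with no overlap.

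Shares were called at adjusted p under 0.05 and a difference of at least 20 points, which 13% of all isoform comparisons over the 28 pairs of groups met. NM_001113529 was called in 5 of 28 pairs, NM_007778 in 6 and NM_001113530 in none (0 of 28). Endothelial cells, at 28.04% ± 0.23, exceeded neurons, at 1.16% ± 1.64, by 26.9 points (SE 2.16, limma adjusted p = 2.48e-06; SD, n = 2), where 24% of all isoforms tested were called. They exceeded astrocytes by 22.3 points, precursor cells by 22.4 and whole cortex by 23.3 (adjusted p = 3.55e-05 or less), in pairs with 12.6%, 12.7% and 17.2% of isoforms called. The call against precursor cells was lost without precursor library 2, at 19.7 points. Against microglia the difference was 19.8 points (adjusted p = 0.000109), just under the limit of 20 points, and 22.4 without microglia library 1. The share of NM_007778 was called lower in endothelial cells than in microglia, by 23.2 points (adjusted p = 0.000121). This is largely the same difference measured on the long transcript, not a separate result. Myelinating oligodendrocytes, at 22.4% ± 1.44, exceeded neurons by 21.2 points (adjusted p = 1.88e-05; 19.7% of isoforms called). From precursor cells, at 5.61% ± 3.89, the share stood 14.2 points higher in newly formed oligodendrocytes (adjusted p = 0.00273) and 16.8 points higher in myelinating ones (adjusted p = 0.000355), both under the limit of 20 points. The 2 later stages were not called different from each other (2.59 points, adjusted p = 0.677).

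**Figure D2:**
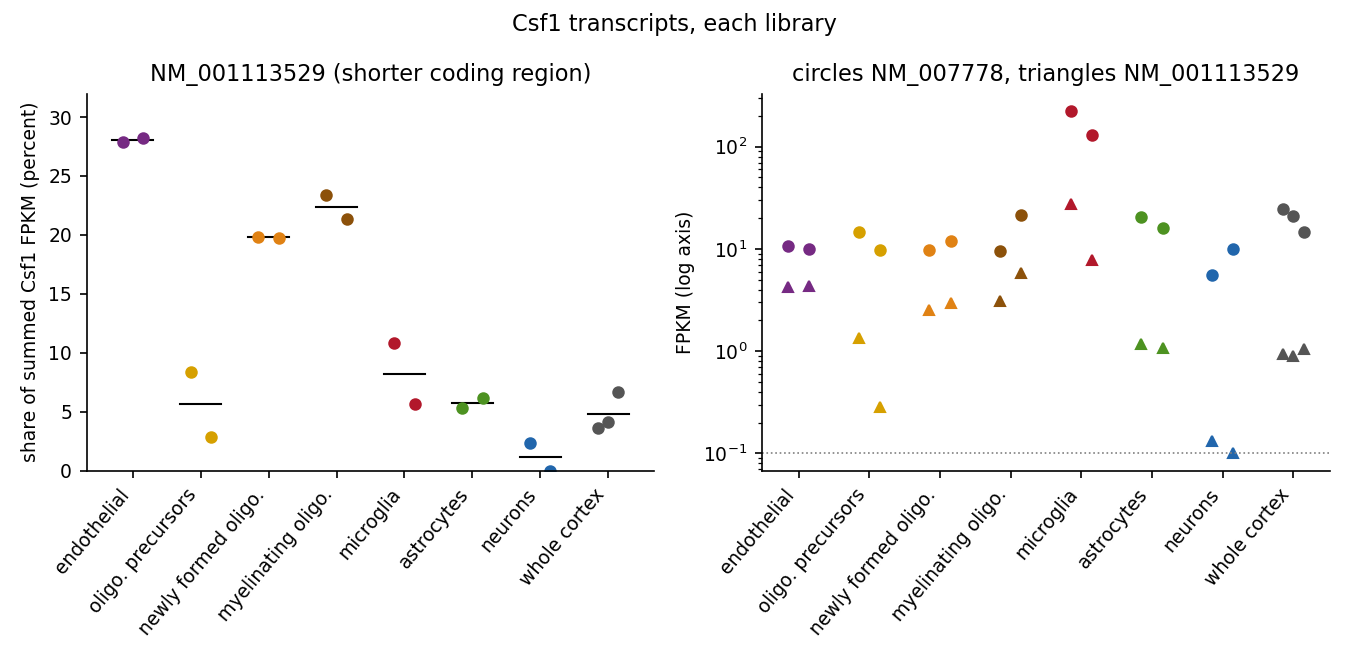
Share of NM_001113529 in the summed Csf1 FPKM of each library in percent (left, bars are group means), and FPKM of NM_007778 (circles) and NM_001113529 (triangles) on a log axis (right, dotted line at the floor of 0.1 FPKM). The share is highest in endothelial cells, at 27.9% and 28.2%, while the level of both transcripts is highest in microglia.

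The plot of both transcripts separates share from level. Microglia had the highest level of the short transcript too, at 27.4 and 7.86 FPKM, against 4.25 and 4.33 FPKM in endothelial cells and 0.131 and 0.1 FPKM in neurons. The long transcript NM_007778 had 225.3 and 131 FPKM in microglia. Endothelial libraries also held 230.2 to 269.6 FPKM summed over 5 mural cell markers, all 5 above the floor. The sum was 1.69 to 39.2 FPKM in the libraries of microglia, neurons and astrocytes and 5.77 to 16.3 FPKM in precursor cells. It was 0.132 to 1.48 FPKM in newly formed and myelinating oligodendrocytes, where the share was also high. Whole cortex, where the share was low, held 100.2 to 127.8 FPKM. The part of mural cells in the endothelial share was not tested.

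Il34 has 2 transcripts in the tables. NM_001135100 codes for 235 residues, and NM_029646 for 219, with an additional exon of 118 bases at chr8:110746818-110746935 on the minus strand of GRCm38. NM_001135100 made up 90.7% ± 0.03 of Il34 in neurons and 97.4% ± 2.94 in whole cortex (SD, n = 2 and 3). That pair was the only pair of groups in which every library reached the 5 FPKM needed for the isoform test, and neither transcript was called.

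Csf1r, the receptor of both ligands, had 2502 and 3462 FPKM in microglia. It had 0.831 and 3.01 FPKM in neurons, 1.92 and 1.301 in astrocytes and 0.773 and 0.293 in endothelial cells. Along the oligodendrocyte series Csf1r had 137.3 and 69.7 FPKM in precursor cells, 6.75 and 7.74 in newly formed and 10.9 and 21.8 in myelinating oligodendrocytes. Whole cortex had 34.4, 40.6 and 36.0 FPKM of Csf1r. The microglia libraries were far above all others, and precursor cells were above whole cortex in both libraries.

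Csf1r averaged 2982 ± 678 FPKM in microglia (SD, n = 2) and ranked 9 of 22462 genes there. The nearest type was precursor cells, at 103.5 ± 47.8 FPKM, 28.8 times lower by the means. The log2 difference was 4.90 (SE 0.39, limma adjusted p = 8.83e-08). Without both precursor libraries the nearest type was myelinating oligodendrocytes, at 7.48 (adjusted p = 4.53e-10). Csf1r was called in 24 of 28 pairs, more than any other of the 6 genes. These were 17 of 21 between purified types (39.3% over all genes) and all 7 with whole cortex (34.4% over all genes). Precursor cells exceeded whole cortex by 1.38 (adjusted p = 0.00582; 16.1% of all genes called), but by 0.90 without precursor library 1, which ended the call. The only pairs not called were those among neurons, astrocytes and endothelial cells, and myelinating against newly formed oligodendrocytes (1.00, adjusted p = 0.0461), which lay just under the limit of 1. Without library 1 of myelinating oligodendrocytes that pair was called, at 1.47, and whole cortex over myelinating oligodendrocytes was not, at 0.74, nor was it with median-of-ratios scaling, at 0.24. Neurons over endothelial cells was called without neuron library 1, at 1.41, and with scaling to a common sum, at 1.10, and astrocytes over endothelial cells with that scaling, at 1.02. With a pseudocount of 0.1 both were called too, at 1.54 and 1.52. Newly formed oligodendrocytes over neurons lost the call without neuron library 1, at 1.04.

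Csf3r, the G-CSF receptor, had 105.9 and 114 FPKM in microglia. It had 0.1 FPKM in both neuron libraries, 0.119 and 0.1 in astrocytes and 0.105 and 0.121 in endothelial cells, at or just above the floor. In precursor cells Csf3r had 6.80 and 2.57 FPKM, in newly formed oligodendrocytes 0.211 and 0.236 and in myelinating oligodendrocytes 0.378 and 0.571. Whole cortex had 1.32, 1.51 and 1.06 FPKM of Csf3r. The groups order as for Csf1r, with microglia first, precursor cells next and whole cortex after them.

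Csf3r averaged 110.02 ± 5.81 FPKM in microglia, the closest pair of libraries among the microglial receptor genes. The log2 difference from precursor cells was 4.39 (SE 0.25, adjusted p = 2.47e-09), and 6.24 from myelinating oligodendrocytes without both precursor libraries (adjusted p = 2.32e-13). Of the 28 pairs 16 were called, 11 of 21 between purified types (39.3% over all genes) and 5 of 7 with whole cortex (34.4%). Precursor cells exceeded whole cortex by 1.21 (adjusted p = 0.000686), and by 0.64, not called, without precursor library 1. Whole cortex exceeded neurons, astrocytes and endothelial cells by 1.04 to 1.06, where 17.7%, 28.4% and 41% of all genes were called, and all 3 calls were lost without whole cortex library 2, at 0.97 to 0.99, and with median-of-ratios scaling, at 0.88 to 0.90. Neutrophil genes were present in the microglia libraries, where 7 such genes summed to 103 and 129 FPKM, with 6 or 7 above the floor. S100a8 and S100a9 carried most of that sum, at 27.2 and 45.1 FPKM and at 45.2 and 55.0 FPKM. Ngp, Retnlg and Camp averaged 15.9, 6.94 and 6.25 FPKM in microglia, and the granule enzyme genes Mpo and Elane were at 0.1 to 0.357 FPKM. In the precursor libraries the sum was 14.05 and 1.302 FPKM and in endothelial cells 5.27 to 12.55 FPKM, and the part of neutrophils in the Csf3r levels was not tested.

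Csf2rb, the shared beta chain, had 16.0 and 12.9 FPKM in microglia. It was at the floor of 0.1 FPKM in both libraries of neurons, astrocytes, newly formed and myelinating oligodendrocytes, and at 0.1 and 0.124 FPKM in endothelial cells. Precursor cells had 0.989 and 0.287 FPKM of Csf2rb, and whole cortex 0.726, 0.873 and 0.657. The difference of microglia from precursor cells was 3.26 (SE 0.16, adjusted p = 4.78e-10), and 22.6-fold by the means. All 7 called pairs of the 28 were those of microglia. With a pseudocount of 0.1 precursor cells and whole cortex were also called above neurons, astrocytes, endothelial cells and the later oligodendrocyte stages. Those differences were 1.62 to 2.08, at levels under 1 FPKM. Without either microglia library Csf2rb no longer had 2 libraries at 1 FPKM, so it left the test.

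Mice carry a second beta chain gene, Csf2rb2, which serves IL-3 and lies beside Csf2rb on chromosome 15. Csf2rb2 had 10.6 and 9.53 FPKM in microglia, 0.889 and 0.256 in precursor cells and 0.396 to 0.445 in whole cortex, and was called for microglia (2.84, SE 0.14, adjusted p = 4.87e-10). Like Csf2rb it entered the test only through the microglia libraries, and left it without either of them. The transcripts of Csf2rb and Csf2rb2 are 91.5% identical over 4653 aligned bases, with a longest identical run of 242 bases, and 18.9% of 50-base windows of Csf2rb recur in Csf2rb2. How reads were split between them is not given in the sources used here, so the level of each is uncertain. The ratio of Csf2rb to Csf2rb2 was 1.51 and 1.35 in microglia.

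Csf2ra, the alpha chain of the GM-CSF receptor, did not follow its beta chain. It had 11.96 and 8.53 FPKM in microglia and 9.94 and 10.1 in neurons, 3.51 and 2.19 in astrocytes and 1.61 and 1.65 in endothelial cells. Along the oligodendrocyte series Csf2ra had 9.58 and 4.10 FPKM in precursor cells, 3.47 and 1.55 in newly formed and 0.797 and 1.29 in myelinating oligodendrocytes. Whole cortex had 10.8, 8.18 and 10.7 FPKM. The neuron libraries lay between the 2 microglia libraries, and 1 of the 3 cortex libraries lay just beneath them.

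Csf2ra averaged 10.2 ± 2.42 FPKM in microglia and 10.04 ± 0.14 in neurons (SD, n = 2), a log2 difference of 0.01 (SE 0.33, adjusted p = 1). This difference changed sign with scaling to a common sum, at -0.75, and without microglia library 1, at -0.21, and was 0.55 with median-of-ratios scaling (adjusted p = 0.294). Csf2ra was called in 15 of 28 pairs, 11 of 21 between purified types (39.3% over all genes) and 4 of 7 with whole cortex (34.4%). Microglia exceeded astrocytes by 1.55, newly formed oligodendrocytes by 1.72, endothelial cells by 2.08 and myelinating oligodendrocytes by 2.45 (adjusted p = 0.000618 or less), in pairs where 51.2%, 43.9%, 43.2% and 37.4% of all genes were called. Neurons exceeded the same groups by 1.54, 1.71, 2.07 and 2.44 (adjusted p = 0.000944 or less). Microglia and neurons were not called above precursor cells (0.60, adjusted p = 0.114, and 0.59, adjusted p = 0.154), but were without precursor library 1, at 1.12 and 1.11. Along the oligodendrocyte series the mean level was 6.84 FPKM in precursor cells, 2.51 in newly formed and 1.04 in myelinating oligodendrocytes. Myelinating oligodendrocytes were lower than precursor cells by 1.86 (adjusted p = 0.00015; 48.3% of all genes called). With scaling to a common sum the call of microglia against astrocytes was lost, at 0.88.

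The ratio of beta to alpha chain, Csf2rb to Csf2ra, was 1.34 and 1.51 in microglia. In neurons it was 0.0101 and 0.00987, with Csf2rb at the floor, so that 1 of the 2 chains was detected there. In whole cortex the ratio was 0.0614 to 0.107. Microglia were the only purified type in which both chains exceeded 1 FPKM in every library.

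**Figure D3:**
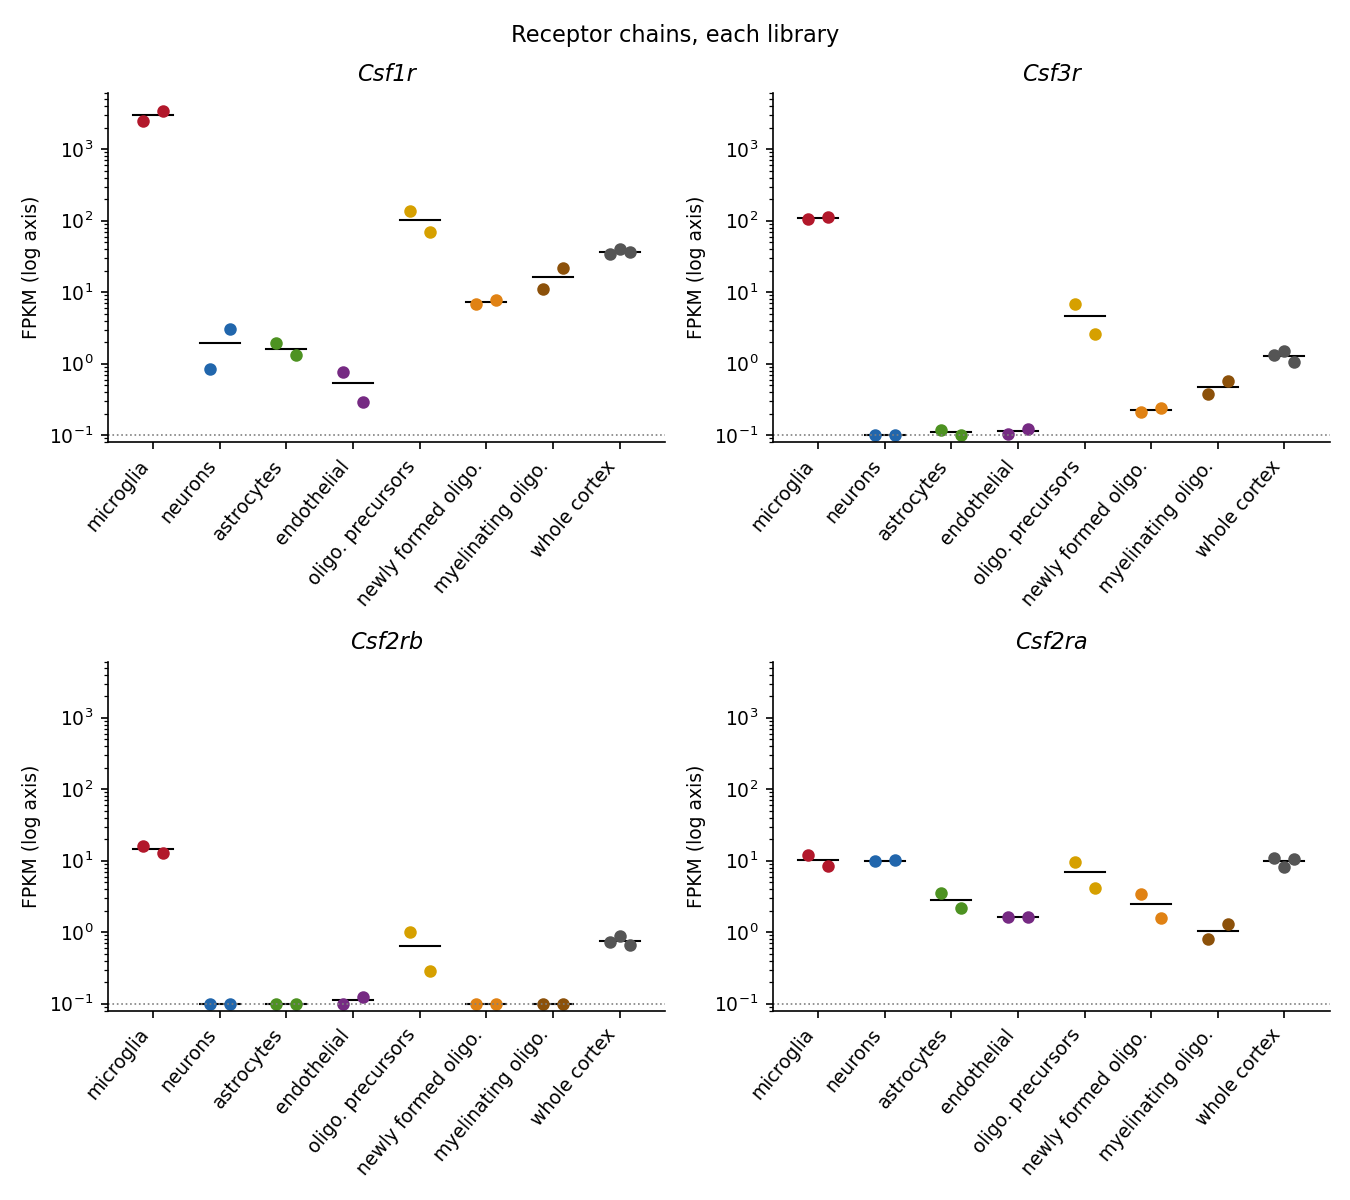
FPKM of the 4 receptor genes in each library on a log axis, with points for libraries, bars for group means and a dotted line at the floor of 0.1 FPKM. Csf1r, Csf3r and Csf2rb stand apart in microglia and come next in precursor cells or whole cortex, while Csf2ra is as high in neurons as in microglia, near 10.04 FPKM.

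The low levels of the microglial genes outside microglia were set beside microglia markers. As a share of the microglia mean, 6 markers had a median of 8.99% in precursor library 1 (range 2.997% to 31.1%) and 4.27% in precursor library 2 (1.62% to 9.75%). Csf1r stood at 4.61% and 2.34%, Csf3r at 6.18% and 2.34% and Csf2rb at 6.86% and 1.99%, all within the range of the markers. In whole cortex the marker medians were 1.92%, 2.86% and 2.53%, with Csf1r at 1.15% to 1.36%, Csf3r at 0.961% to 1.37% and Csf2rb at 4.55% to 6.05%, above the medians and within the marker ranges. In myelinating oligodendrocytes the medians were 0.666% and 1.29% and Csf1r stood at 0.365% and 0.730%. The part of microglial RNA in these levels was not tested.

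Csf2ra lay above the highest marker in every non-microglia library. In neurons the marker medians were 0.0403% and 0.158% of the microglia mean, and Csf2ra stood at 97.0% and 98.9%. In precursor cells Csf2ra stood at 93.5% and 40.0%. Csf1 stood at 8.23% and 5.06% in precursor cells, within the range of the markers there. In astrocytes the markers were at 0.0713% and 0.0538% and Csf1 at 11.1% and 8.92%, and in endothelial cells they were at 0.0479% and 0.028% and Csf1 at 7.75% and 7.80%.

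**Figure D4:**
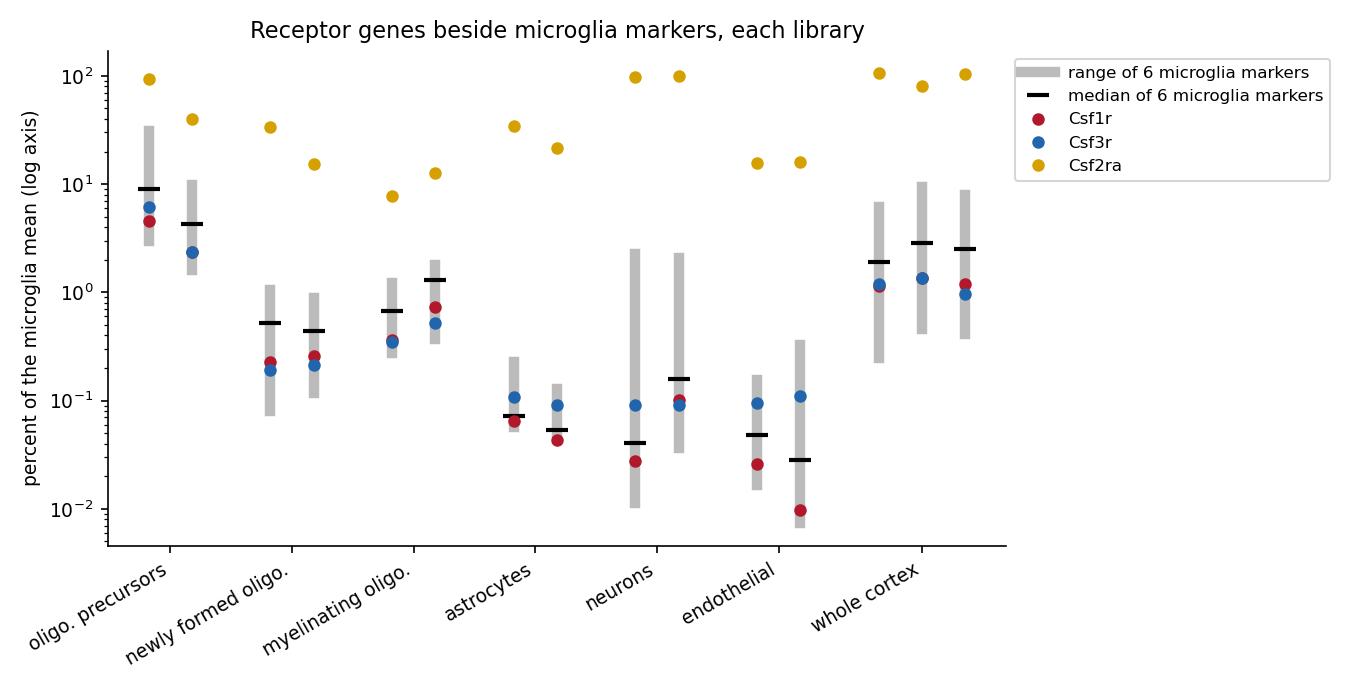
Levels of Csf1r, Csf3r and Csf2ra in each non-microglia library as percent of the microglia mean, on a log axis, with the range (grey bar) and median (black line) of 6 microglia markers in the same library. Csf1r and Csf3r lie within the grey bars, except Csf1r in astrocyte library 2 just beneath, and Csf2ra lies above the bar in every library.

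The microglia libraries also held genes of other myeloid cells that carry these receptors. Genes of perivascular and meningeal macrophages (5 listed, all above the floor) summed to 189.1 and 120.1 FPKM, against 5054 and 7258 FPKM for the 6 microglia markers. Of 5 monocyte genes the sum was 11.6 and 26.1 FPKM in microglia, but 967.8 to 1026 FPKM in endothelial cells, so that list does not mark monocytes alone. Markers of T and NK cells summed to 2.57 and 2.77 FPKM and those of B cells to 2.13 and 3.05 FPKM. The part of these cells in the receptor levels was not tested.

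Over all 6 genes, 66 of 126 tests between purified types were called, against 39.3% of tests over all genes, and 23 of 42 tests against whole cortex, against 34.4% over all genes. Csf2rb gave 6 of the 66 calls and 1 of the 23, and it entered the test only through the microglia libraries. The 6 genes were also chosen with earlier results of these data known, so no conclusion is drawn from these counts. Per gene the pairs called ran from 7 of 28 for Csf2rb to 24 of 28 for Csf1r. Across the 14 purified libraries the log2 levels of Csf1r, Csf2rb and Csf3r ran closely together (Pearson r from 0.896 to 0.979), and Csf1 had r of 0.807 to 0.924 with them. Il34 had r of -0.347 with Csf1 and -0.095 with Csf1r. These values are descriptive, and the 2 microglia libraries weigh heavily in them.

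For each gene the 5 others with the most similar profile over the 14 purified libraries were listed by Pearson r. Csf1r was closest to C1qa, C1qb, Itgam, Fcrls and C1qc (r = 0.998 to 0.995), the complement chains and integrin being standard microglia genes. Csf3r was closest to Vav1, Blnk, Slc15a3, Hmha1 and Slc2a5 (r = 0.999 for each), and Csf2rb to Csf2rb2, Naip2, Cd209g, Gpr157 and Runx1 (r of 0.999 or more). Csf1 was closest to Tcirg1, a proton pump subunit, with r of 0.952, then AB124611, Tmem104, Acox3 and Tep1. Il34 was closest to Fam57b (r = 0.928), then Samd10, Nsf, Peg13 and Rusc1. For Csf2ra the list held Zfp90 (r = 0.938), Tanc2, Csnk1e and Pyroxd2.

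Other genes of the pathway came from 8 lists with 46 genes, of which 41 passed the filter of 1 FPKM in at least 2 libraries. Of the 41, 21 were called for a type, 14 for microglia, 6 for endothelial cells and 1 for neurons, against 25.3% of all genes tested for any type, 7.03% for microglia, 6.29% for endothelial cells and 5.7% for neurons. Of the called genes Csf3 and Csf2rb2 passed the filter only through the type where they are high. The lists were compiled for what is known of these receptors in macrophages, so a high count for microglia is not independent of how they were chosen.

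Among the other ligands, Csf3, which encodes G-CSF, had 3.13 and 2.43 FPKM in endothelial cells, against 0.1 to 0.184 FPKM in the other purified libraries. It was called for endothelial cells (1.72, SE 0.19, adjusted p = 4.73e-06). In whole cortex 1 library held 0.886 FPKM and the other 2 were at the floor. Csf3 entered the test only through the endothelial libraries and left it without either of them, so its call is no support. Csf2, which encodes GM-CSF, had 0.658 and 0.964 FPKM in microglia and was at the floor in every other purified library, and did not pass the filter. Il3, Il5 and the IL-5 receptor gene Il5ra were at the floor in nearly all libraries, with a highest value of 0.179 FPKM for Il5. The alpha chain of the IL-3 receptor, Il3ra, was called for endothelial cells, at 9.06 ± 0.17 FPKM against 2.80 ± 0.59 in microglia (1.41, adjusted p = 1.32e-05), and the call was lost with median-of-ratios scaling, at 0.98.

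The other reported binders of IL-34 were not called (0 of 2, against 25.3% of all genes tested). Ptprz1, a receptor phosphatase, averaged 1022 ± 51.5 FPKM in astrocytes, 418 ± 182 in precursor cells and 229.7 ± 4.85 in whole cortex (difference of astrocytes from precursor cells 1.36, adjusted p = 0.0711). It was called with both scalings, at 1.62 and 1.53, without precursor library 1, at 1.82, and without either library of myelinating oligodendrocytes, at 1.36 with adjusted p of 0.0257 and 0.0256. Sdc1, a cell-surface proteoglycan, averaged 5.16 FPKM in neurons and 5.08 in precursor cells.

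Of the 4 related kinases and ligands 3 passed the filter, Flt3 being left out, and 2 of these 3 were called, against 25.3% of all genes tested. Kitl, the ligand of the receptor Kit, had 113.7 and 112.3 FPKM in endothelial cells, against 3.27 ± 0.55 in astrocytes (4.75, SE 0.22, adjusted p = 1.59e-10). Kit, the class relative of Csf1r, averaged 28.4 ± 9.82 FPKM in neurons, against 10.3 ± 0.02 in endothelial cells (1.34, adjusted p = 0.000659). The Kit call was lost without neuron library 2, at 0.99. Flt3 did not exceed 0.271 FPKM in any library.

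Downstream of the receptors, 4 of 14 genes of JAK-STAT signalling and its brakes were called, close to the 25.3% of all genes tested. Socs3, a feedback inhibitor of cytokine receptors that the G-CSF receptor engages, averaged 474 ± 29.8 FPKM in microglia, against 103.2 ± 31.6 in astrocytes (2.22, adjusted p = 7.45e-06). The phosphatases Ptpn6 and Inpp5d, which dampen CSF1R and other myeloid receptors, were called for microglia at 4.47 and 4.73. Jak2, the kinase of the beta chain, was called for endothelial cells, at 39.4 ± 0.62 FPKM against 13.4 ± 3.31 in precursor cells and 4.42 ± 1.93 in microglia (1.51 over precursor cells, adjusted p = 0.000808). Jak3, at 46.9 ± 5.82 FPKM in microglia against 23.0 ± 0.49 in endothelial cells, fell just short of the limit (0.99). Jak3 was called for microglia with median-of-ratios scaling, at 1.52, without microglia library 1, at 1.11, and without endothelial library 1, at 1.01.

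Of 11 adaptors and transducers of CSF1R, 5 were called and all 5 for microglia, against 7.03% of all genes tested. Tyrobp, the adaptor DAP12, had 1288 and 1698 FPKM in microglia, against 60.9 ± 31.5 in precursor cells (4.68, adjusted p = 2.90e-08). The kinase gene Sykb (Syk) was called at 2.98, Pik3cd at 3.14, Plcg2 at 3.46 and Vav1 at 4.48. Of the 2 sheddases, Adam10 was called for endothelial cells, at 104.7 ± 2.33 FPKM against 31.5 ± 12.3 in precursor cells (1.75, adjusted p = 0.000215). Adam17, which cuts CSF1 and CSF1R from the surface, was not called (0.04, adjusted p = 1). It averaged 18.6 to 19.5 FPKM in endothelial cells, astrocytes and microglia, 18.5 in newly formed oligodendrocytes and 17.6 in precursor cells. Myelinating oligodendrocytes had 8.00 FPKM and neurons 2.92.

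All 6 listed transcription factors of the myeloid lineage were called, 5 of them for microglia. Over all genes tested 25.3% were called for any type and 7.03% for microglia. Sfpi1, which encodes PU.1, averaged 407 ± 13.8 FPKM in microglia, against 10.9 ± 6.87 in precursor cells (5.23, adjusted p = 6.75e-09). Irf8 was called at 5.25, Runx1 at 3.18, Cebpa at 4.08 and Cebpb at 3.73. Ets2, at 61.9 ± 3.02 FPKM, was called for endothelial cells against 27.0 ± 8.61 in microglia (1.20, adjusted p = 0.0122), and lost the call with median-of-ratios scaling, at 0.67, and without either endothelial library or microglia library 2.

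**Figure D5:**
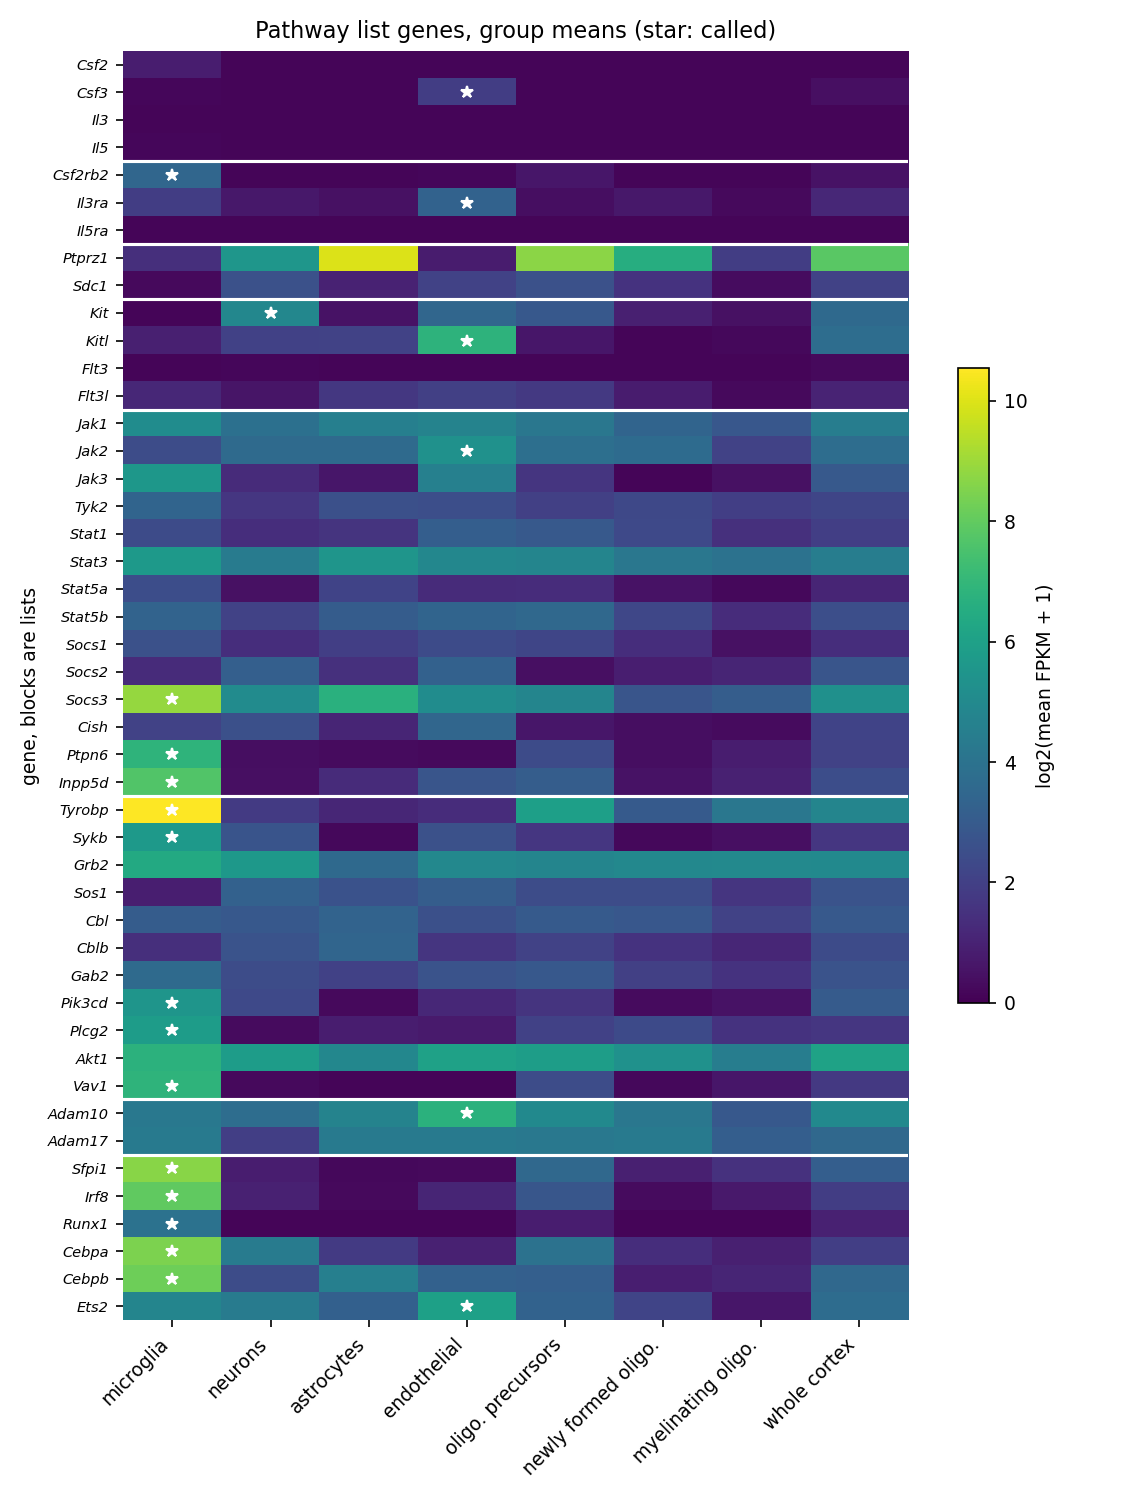
log2(mean FPKM + 1) of the 46 pathway genes (rows, in 8 blocks by list) in the 8 groups (columns), with a white star where a gene was called higher in a purified type. Of the 21 stars, 14 stand in the microglia column, 6 in that of endothelial cells and 1 in that of neurons.

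The map of pathway genes shows the 5 microglial transcription factors in the lowest block and Csf3 and Csf2rb2 in the upper blocks. PU.1 binds a core of GAGGAA, and the 250 bases before the start used in the RefSeq promoter table of GRCm38.p6 were searched for these letters on both strands. Other annotated starts of Csf3r and Csf2ra lie further upstream, and were not searched. Csf1r was left out of this search. Of the 6 genes 3 were searched, and the core was found once in Csf3r, 2 times in Csf2ra and in 0 places in Csf1. Of 32851 promoters in the table, 23.3% hold it. A match is a description of letters only. The promoters of Csf3r, which holds the core, and Csf1, which does not, are printed since both genes were called for microglia. They are chr4:126024409-126024658 on the plus strand and chr3:107760470-107760719 on the minus strand, each written along its gene with the core in capitals.
Csf3r: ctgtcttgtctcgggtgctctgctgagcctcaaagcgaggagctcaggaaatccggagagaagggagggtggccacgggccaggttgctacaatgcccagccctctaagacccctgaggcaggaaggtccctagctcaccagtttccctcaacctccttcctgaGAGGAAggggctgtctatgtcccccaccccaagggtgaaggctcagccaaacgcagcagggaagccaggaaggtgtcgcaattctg
Csf1: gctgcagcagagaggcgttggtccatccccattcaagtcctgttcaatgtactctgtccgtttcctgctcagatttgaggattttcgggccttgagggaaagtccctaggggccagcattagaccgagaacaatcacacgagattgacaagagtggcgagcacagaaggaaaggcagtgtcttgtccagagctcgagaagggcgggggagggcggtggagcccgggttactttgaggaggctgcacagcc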

How the data were processed

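Paired-end TruSeq libraries of polyadenylated RNA were sequenced from 17 mouse cortex samples, per the labels' protocols. The authors deposited FPKM for each gene symbol and each RefSeq isoform, where 0.1 stands for anything lower. The submitters' processing notes name the build mm9 and list Cufflinks 1.3.0, Bowtie 0.12.7, TopHat 1.3.3 and CASAVA. With isoforms at the floor counted as 0, 98.4% of gene values matched the total of their isoforms to within 0.0001 FPKM. Low values did not give back whole reads (at most 6 genes shared a ratio window, against 4 after shuffling), so depth is unknown, as is the counting error of low values. Within a library FPKM also depend on its most abundant genes.

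All 17 libraries entered a cell-means model of log2(FPKM + 1) in limma 3.58.1 (R 4.3.3), with a trended prior variance and 9 residual degrees of freedom, so that the spread is pooled over groups. A filter of 1 FPKM in at least 2 libraries kept 14011 genes. A log2 difference on this scale understates changes of low genes. For each purified type the largest of 6 one-sided p-values was adjusted by Benjamini-Hochberg over genes. The 28 pairs of groups were tested two-sided and adjusted within each pair. Both were called at adjusted p under 0.05 and a difference of at least 1. Isoform shares in percent were computed from the deposited FPKM and tested with limma where the gene sum was at least 5 FPKM in every library of both groups.

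The members and lists were chosen with earlier results of these data known. The rule names the 6 members, the called pathway genes and those of the ligand and receptor lists, at most 4 per list by level, and 5 genes per member by likeness, of which 1 is not reported here. Pik3cd, Runx1, Ets2, Ptprz1, Sdc1, Flt3, Jak3 and Adam17 lie outside it and were named after their values were seen. Alternatives were a pseudocount of 0.1, no filter, a filter at 5 FPKM, both scalings, a constant prior, a replicate block, a difference of at least 2, other limits for isoforms, and each library left out.

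On simulated data of 12629 genes with 66 or 67 changed per size, the test of a type recovered 8.96% of 2-fold, 94.0% of 4-fold and 100% of 8-fold changes and called 0 unchanged genes. Changed genes were drawn only from those with a mean log2(FPKM + 1) of 2 to 8, and the change was added on that scale. Il34, Csf2rb and Csf3r have lower means, so the recovery does not cover them. Unchanged genes had the same mean in all groups. Genes high in several types were not simulated, so false calls among them are unknown. Of 100 isoform shares raised by 30 points in endothelial cells against whole cortex, among 1552 isoforms, 89 were recovered, with 1 unchanged isoform called. That rise is larger than the 23.3 points of NM_001113529 in this pair, and recovery of smaller rises is unknown. Transcript structures came from GENCODE vM21 and promoters from RefSeq, both GRCm38. Plots were made with Python 3.11.15 and matplotlib 3.10.9.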

Additional observations from a re-analysis of the deposited data

How the results depend on the processing

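The count of 4 genes called higher in a type was 4 under all 8 other settings of pseudocount, filter, scaling, prior, block and threshold, and 3 to 5 with each of the 17 libraries left out. It was 5 without precursor library 2, with Il34 added, and 3 without either microglia library, when Csf2rb left the test. The 89 called pairs of members became 59 at a log2 difference of at least 2, ran up to 113 under the other settings, and were 82 to 91 with a library left out. The 21 called pathway genes were 15 to 25 under other settings, 19 to 22 with a library left out and 22 without both precursor libraries. The 11 called isoform pairs became 5 when the gene sum had to reach 10 FPKM, since pairs with neurons or precursor cells were then not tested, and 31 at a difference of at least 10 points, and were 10 to 14 with a library left out. Csf2ra in microglia against the nearest type turned to -0.75 with scaling to a common sum, and to -0.0025 without neurons replicate 1, and ran from -0.21 without microglia replicate 1 to 0.23 without microglia replicate 2; the cause was not tested. Of all values of single members under these settings 4174 stayed as they were, called or not called. A call was lost by 60 and gained by 55, and 3 changed sign. Same-numbered libraries deviated together (correlation over 0.1) in 7 of 28 pairs of groups (range -0.25 to 0.73): all 6 among precursor cells, newly formed oligodendrocytes, microglia and endothelial cells, at 0.148 to 0.726, and microglia with whole cortex, at 0.23. The other 21 did not, and no label ties the numbers to a shared batch, so the numbers were not taken to pair the libraries. With the replicate number as a block the counts were 4, 89, 21 and 11.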
